A study of Mus musculus with 6 samples.

Results

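The mitochondrial ribosomal proteins are the nuclear-encoded proteins of the ribosome that works inside mitochondria. They were taken as all protein-coding genes of the GENCODE mouse annotation (GRCm38) whose symbols begin with Mrpl or Mrps followed by a number, which gave 78 of the 52550 genes in the count tables. Messenger RNA had been counted in cultured heart muscle cells of newborn mice, with 3 libraries labelled GR-cKO and 3 labelled control. In GR-cKO the gene for the glucocorticoid receptor was deleted in cardiomyocytes. The sources used here do not give the Cre driver, the deleted exon or the alleles of the controls. All cells came from hearts at postnatal day 1, were freed with pancreatin and collagenase, and were purified with magnetic beads. They were cultured for 48 hours with 5% horse serum and 10% fetal bovine serum and then for 24 hours without serum, in both groups alike. The labels call the libraries biological replicates but name no animal, litter or culture for any of them, so the p-values measure only the spread between these libraries.

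The mitochondrial ribosome translates the few messenger RNAs of mitochondrial DNA, all of which encode subunits of oxidative phosphorylation. Its RNA is made inside the organelle, while every one of its proteins is made in the cytosol and imported, so a working particle needs both genomes. A small subunit binds the messenger RNA and decodes it, and a large subunit joins the amino acids and hands the growing chain to the inner membrane. Many of its proteins descend from bacterial ribosomal proteins and others were added in the course of mitochondrial evolution. The heart depends on oxidative phosphorylation, and inherited defects in several of these proteins cause cardiomyopathy in human patients.

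The libraries held 19371508 to 22583596 gene counts. Levels are given as CPM (counts scaled to a common library size) with TMM factors, and since each transcript gives 1 tag near its polyadenylated end, a level does not depend on the length of the gene. Of 14386 genes tested, 2132 passed an adjusted p of 0.05 (edgeR quasi-likelihood test), 1097 higher and 1035 lower in GR-cKO, against 1355 higher and 522 lower when the libraries were scaled by ERCC spike-in RNAs. Nr3c1, which encodes the glucocorticoid receptor, averaged 44.4 ± 1.71 CPM in GR-cKO and 71.5 ± 2.96 CPM in control (SD, n = 3 each), with all GR-cKO libraries below all control libraries and a log2 fold change of -0.69 ± 0.09 (SE, edgeR adjusted p = 3.3e-06). A 3' tag outside the deleted exon need not change with the deletion. Xist, transcribed from the inactive X chromosome of females, averaged 0.0332 CPM in GR-cKO and 279 CPM in control, and Ddx3y, on the Y chromosome, averaged 89.3 CPM in GR-cKO and 19.8 CPM in control, so sex and genotype cannot be told apart. The summed level of 8 cardiomyocyte markers was 29610 to 30230 CPM in GR-cKO and 23620 to 24530 CPM in control, with 6 of 8 higher. The 8 fibroblast markers summed to 4721 to 4840 CPM in GR-cKO and 3609 to 3813 CPM in control, with 4 higher and 1, Dcn, lower. The 8 endothelial markers summed to 1140 to 1223 CPM in GR-cKO and 907.7 to 938.3 CPM in control, with 6 higher and 1, Emcn, lower. The 7 smooth muscle and pericyte markers summed to 4411 to 4635 CPM in GR-cKO and 3723 to 3836 CPM in control, with 5 higher, and the 7 leukocyte markers to 34.8 to 54.6 CPM in GR-cKO and 13.6 to 17.5 CPM in control, with 2 higher. The 5 epicardial markers were lower in sum, at 55.4 to 66.6 CPM in GR-cKO and 87.7 to 91.5 CPM in control, with 2 lower and 1 higher. The 5 Schwann cell and neural markers summed to 14.9 to 21.9 CPM in GR-cKO and 23.2 to 24.2 CPM in control, and the 5 erythroid markers to 3.52 to 5.00 CPM in GR-cKO and 1.31 to 3.02 CPM in control, with no marker of either list past the threshold. None of these markers was listed at 0 in every library. Their part in the results below was not tested, and in bulk RNA fewer cells of a type cannot be told apart from less RNA per cell.

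As a set, the mitochondrial ribosomal proteins stood at nearly the same level in GR-cKO as in control, relative to the other genes measured. Of the 78 genes, 76 had enough counts to be tested, 1 rose in GR-cKO (Mrpl38) and 1 fell (Mrps6), which is 2.63% of those tested. Over all 14386 tested genes, 14.8% passed the threshold, 7.63% higher and 7.19% lower in GR-cKO. Among the 7828 genes at the levels that most of the set has, from 10 CPM up to that of its most abundant member, 18.2% passed. At an unadjusted p below 0.05 there were 12 members (15.8%), against 26.1% of all tested genes. The groups did not overlap in 13 members (17.1%), 9 higher and 4 lower in GR-cKO, against 29.9% of all tested genes.

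The median log2 fold change of the 76 members was -0.003, against -0.007 over all tested genes. By sign alone, 37 members were higher and 39 lower in GR-cKO. The middle of the set was somewhat narrower than that of all genes at member levels, with log2 quartiles at -0.08 and 0.10, against -0.16 and 0.13. The standard deviation of the fold changes was 0.15 on the log2 scale, against 0.36 for all genes at member levels. The latter value is widened by extreme genes, since log2 fold changes at member levels ran from -12.8 to 6.41. For 72 members (94.7%) the whole 95% interval of the fold change lay within 1.5-fold in either direction, which held for 51.3% of all tested genes and for 80.6% of genes at member levels. For 38 members the interval lay within 1.25-fold. The libraries of a group scattered about as much for the members as for other genes of their level, with a median coefficient of variation of 7.87% against 8.26%.

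**Figure D1:**
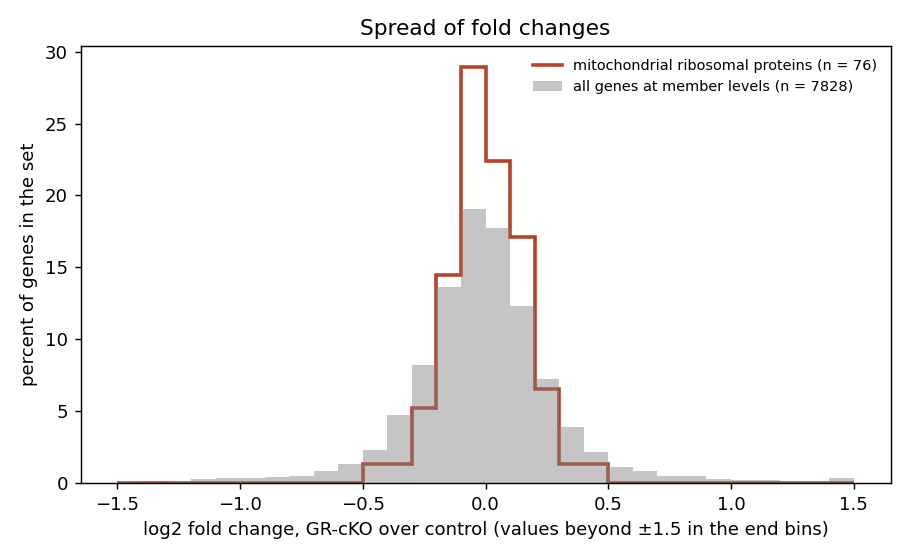
Distribution of log2 fold changes, GR-cKO over control, in bins of 0.1 (horizontal axis) as percent of the genes in each set (vertical axis). The red outline stands for the 76 tested mitochondrial ribosomal proteins and the grey area for the 7828 genes at their levels. The red outline is the narrower, with quartiles at -0.08 and 0.10 against -0.16 and 0.13.

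**Figure D2:**
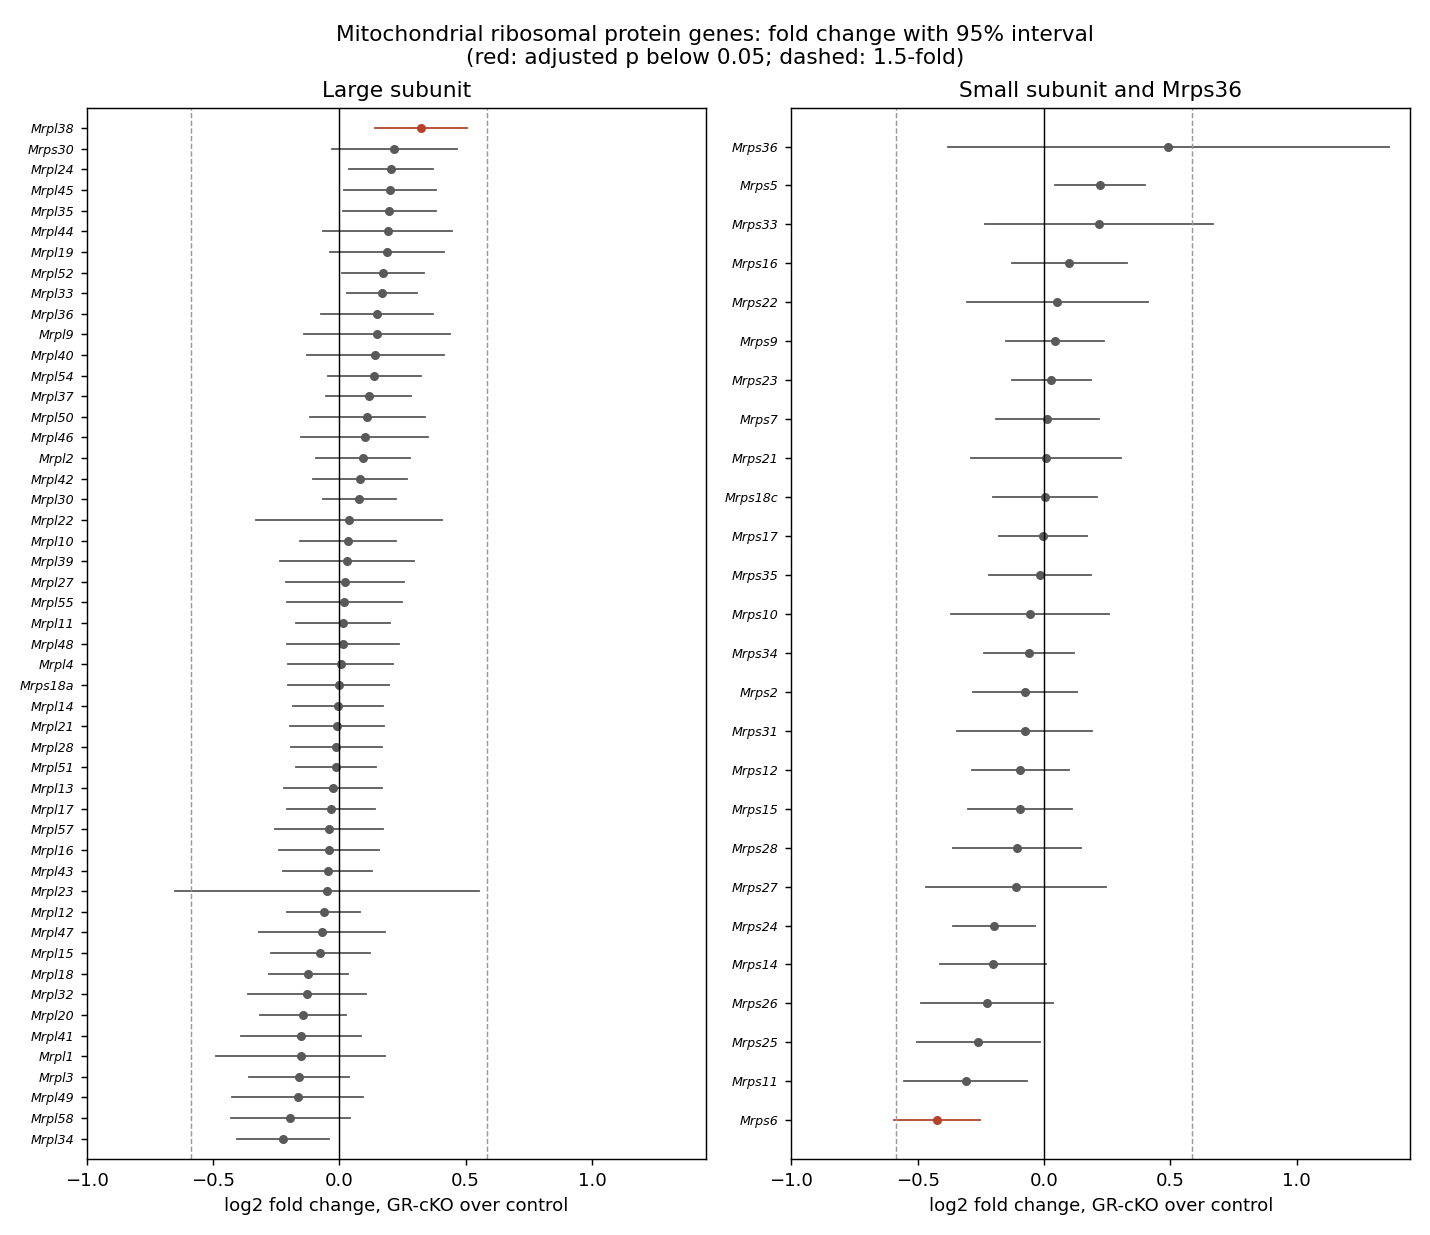
Log2 fold change of each tested member (point, horizontal axis) with its 95% interval (line), by structural subunit. Mrpl38, at 0.32, and Mrps6, at -0.42, are drawn in red as the members that passed the threshold, and 72 of the 76 intervals lie inside the dashed lines at 1.5-fold.

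Mrps6, the clearest difference in the set, fell in GR-cKO. It encodes bS6m, the counterpart of bacterial S6, which sits beside bS18m on the platform of the small subunit. Mrps6 (ENSMUSG00000039680, GRCm38 chromosome 16, 92058270 to 92112227, plus strand) had 163.5, 159.1 and 184.8 CPM in GR-cKO, against 199.2, 227.6 and 254.0 CPM in control. Every GR-cKO library lay below every control library, and it was the second most abundant member of the set. The means were 169 ± 13.8 CPM in GR-cKO and 227 ± 27.4 CPM in control, a log2 fold change of -0.42 ± 0.08 (SE, 95% interval -0.60 to -0.25, edgeR adjusted p = 0.000706). It passed the threshold in all 12 other ways of processing that were run, with log2 fold changes from -0.51 to -0.34.

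Mrps6 shares its start with Slc5a3, a gene named here after its values were seen, which encodes the sodium-coupled transporter for myo-inositol, an osmolyte and signalling precursor. Both genes lie on the plus strand, with annotated starts 52 bases apart in GENCODE and 14 bases apart in RefSeq, and 159 exonic bases in common, none of them among the last 500 exonic bases of Mrps6. Mrps6 also has 305 exonic bases in common with Gm49711, a protein-coding gene on the same strand, again none among its last 500. The part of these overlaps in the counts was not tested. Slc5a3 had 48.9, 44.4 and 44.5 CPM in GR-cKO, against 88.5, 78.3 and 82.3 CPM in control. The groups were far apart, and the fall was larger than that of Mrps6 in size, with a log2 fold change of -0.85 ± 0.09 (SE, edgeR adjusted p = 1.55e-07). The difference between the fold changes of the pair was not tested. The RefSeq promoter window of Mrps6 (GRCm38.p6, chr16:92058086-92058385, plus strand), from 250 bases before to 50 bases after the start, is shown because 286 of its 300 bases are also in the window of Slc5a3. Capitals mark the 50 bases after the start of Mrps6.
Mrps6: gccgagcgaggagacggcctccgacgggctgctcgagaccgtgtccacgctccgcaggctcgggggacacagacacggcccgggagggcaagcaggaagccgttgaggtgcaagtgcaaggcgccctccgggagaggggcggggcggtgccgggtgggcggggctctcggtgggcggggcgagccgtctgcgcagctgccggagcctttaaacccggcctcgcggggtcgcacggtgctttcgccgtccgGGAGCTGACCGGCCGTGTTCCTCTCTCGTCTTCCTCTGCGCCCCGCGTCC

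Mrpl38 was the member that rose in GR-cKO. It encodes mL38, a protein of the central protuberance of the large subunit that bacterial ribosomes lack. Mrpl38 (ENSMUSG00000020775, GRCm38 chromosome 11, 116131817 to 116138868, minus strand) had 71.9, 68.6 and 61.5 CPM in GR-cKO, against 55.0, 53.5 and 53.0 CPM in control. Every GR-cKO library lay above every control library, with little spread among the controls. The means were 67.4 ± 5.33 CPM in GR-cKO and 53.8 ± 1.03 CPM in control, a log2 fold change of 0.32 ± 0.09 (SE, edgeR adjusted p = 0.0132). The call was lost without GR-cKO replicate 1 (adjusted p = 0.0813), without GR-cKO replicate 2 (0.0576) and without control replicate 2 (0.0584). Trim65, a ubiquitin ligase gene that begins 688 bases beyond the 3' end of Mrpl38 on the same strand, is named after its values were seen. It averaged 6.62 ± 0.43 CPM in GR-cKO and 4.03 ± 0.30 CPM in control, a log2 fold change of 0.72 ± 0.23 (SE, edgeR adjusted p = 0.0392), and passed in 6 of 12 other ways of processing.

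**Figure D3:**
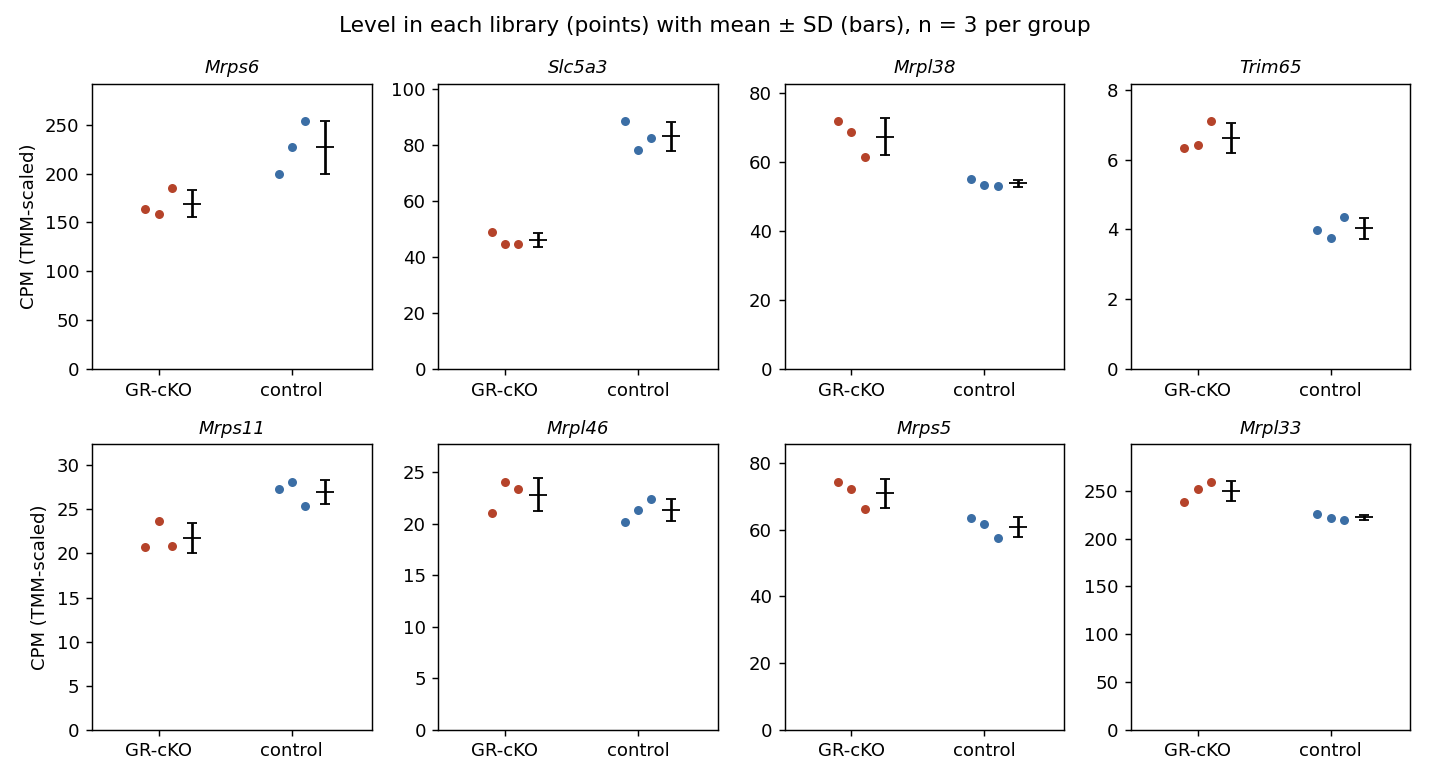
Level in each library in CPM (vertical axis, from 0) for 6 mitochondrial ribosomal proteins and the neighbours Slc5a3 and Trim65. Red points are GR-cKO, blue points are control, and bars give the mean ± SD of 3 libraries; Mrps6 and Slc5a3 lie lower and Mrpl38 and Trim65 higher in every GR-cKO library than in any control library, while Mrpl46 overlaps.

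Among the 25 tested members of the small subunit, 1 fell, none rose, and the median log2 fold change was -0.06, with 9 higher and 16 lower by sign. Mrps11, which encodes uS11m near the exit path of the messenger RNA, had 20.7, 23.7 and 20.8 CPM in GR-cKO, against 27.3, 28.2 and 25.4 CPM in control. Its groups did not overlap, but its log2 fold change of -0.31 ± 0.12 did not pass (SE, edgeR adjusted p = 0.0820), nor did it in any of the 12 other ways of processing. Mrps24, which encodes uS3m at the messenger RNA entry, had 142.4, 151.7 and 130.3 CPM in GR-cKO, against 177.2, 154.8 and 155.4 CPM in control. Again the groups did not overlap and the test was not passed, with a log2 fold change of -0.20 ± 0.08 (SE, edgeR adjusted p = 0.0935). Mrps5, which encodes uS5m, also at the entry side, went the other way. It had 74.4, 72.2 and 66.1 CPM in GR-cKO, against 63.4, 61.5 and 57.6 CPM in control. Its log2 fold change of 0.22 ± 0.09 had an adjusted p of 0.0921 (SE, edgeR) and passed with ERCC scaling only (adjusted p = 0.0436).

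Mrps11 lies head to head with a member of the large subunit, Mrpl46, the only such pair within the set. Their RefSeq starts are 42 bases apart on opposite strands, and 141 bases belong to both promoter windows. In GENCODE the starts are 412 bases apart and the genes overlap there, with 173 exonic bases in common. None of these lies among the last 500 exonic bases of either gene. Mrpl46, which encodes mL46 of the central protuberance, had 21.1, 24.1 and 23.4 CPM in GR-cKO, against 20.2, 21.3 and 22.4 CPM in control. Its groups overlapped, with a log2 fold change of 0.10 ± 0.12 (SE, edgeR adjusted p = 0.679). The window of Mrps11 (RefSeq, GRCm38.p6, chr7:78782881-78783180, plus strand) is shown because its last 141 bases are the shared ones. Its capitals mark a match to a motif of the transcription factor YY1, which begins 108 bases before the start and lies outside the shared stretch.
Mrps11: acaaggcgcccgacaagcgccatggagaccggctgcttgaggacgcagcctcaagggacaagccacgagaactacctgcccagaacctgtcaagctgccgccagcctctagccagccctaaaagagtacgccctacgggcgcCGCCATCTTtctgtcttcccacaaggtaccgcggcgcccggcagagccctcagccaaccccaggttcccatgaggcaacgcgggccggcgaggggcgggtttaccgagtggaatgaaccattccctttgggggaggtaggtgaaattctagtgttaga

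The levels of the 25 tested small subunit members spanned from 6.15 to 198 CPM as means over all 6 libraries. Below Mrps6 and Mrps24 in this order stood Mrps23, which encodes mS23, a protein with no bacterial counterpart, at 107 ± 4.02 CPM in GR-cKO and 105 ± 4.65 CPM in control. At the low end were Mrps33, at 6.60 ± 0.81 CPM in GR-cKO and 5.69 ± 0.32 CPM in control, Mrps27, at 10.6 ± 1.75 CPM in GR-cKO and 11.4 ± 0.56 CPM in control, and Mrps22, at 12.3 ± 1.40 CPM in GR-cKO and 11.8 ± 2.33 CPM in control. These 3 encode proteins that bacteria lack, and none passed the test. Mrps22 and Mrps14 have been linked to cardiomyopathy in human patients. Mrps14, which encodes uS14m in the head of the small subunit, averaged 46.9 ± 5.16 CPM in GR-cKO and 53.8 ± 4.93 CPM in control, a log2 fold change of -0.20 ± 0.10 that did not pass (SE, edgeR adjusted p = 0.217).

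Mammals have 3 genes that descend from the single bacterial gene for S18. Mrps18c, which encodes bS18m, the neighbour of bS6m in the particle, had 40.1, 37.2 and 35.2 CPM in GR-cKO, against 35.9, 38.6 and 37.8 CPM in control. Mrps18a, whose product mL66 sits in the large subunit despite its name, had 50.6, 53.7 and 43.9 CPM in GR-cKO, against 52.0, 47.1 and 49.3 CPM in control. For both genes the groups overlapped, and the log2 fold changes were 0.00 ± 0.10 for Mrps18c and -0.00 ± 0.10 for Mrps18a, with 95% intervals from -0.20 to 0.21 and from -0.20 to 0.20. Mrps18b, which encodes mS40, had only 4 to 6 counts in every library and was not tested. The other untested member, Mrpl53, which encodes mL53 at the base of the stalk, had 0 to 2 counts per library. A count of 0 at this depth allows up to 0.133 to 0.155 CPM, taken as 3 counts and covering counting error only. All of the last 500 exonic bases of Mrps18b overlap the antisense gene Gm16279, and 418 of those of Mrpl53 overlap Gm42688 on the same strand. The part of these overlaps in the low counts was not tested.

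Mrps36 carries the name of a small subunit protein but is now known as a component of the oxoglutarate dehydrogenase complex of the citric acid cycle. It was the least abundant tested member, at 2.76, 1.69 and 2.37 CPM in GR-cKO, against 1.10, 2.02 and 1.73 CPM in control. Its groups overlapped, and its log2 fold change of 0.49 ± 0.42 was the highest of the set and the least certain, with a 95% interval from -0.38 to 1.37 (SE, edgeR adjusted p = 0.522). Its processed pseudogene Mrps36-ps2 was counted at 2.10 CPM in both GR-cKO and control, a level like its own, so its value is uncertain.

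Among the 50 tested members of the large subunit, 1 rose, none fell, and the median log2 fold change was 0.02, with 27 higher and 23 lower by sign. Its most abundant member was Mrpl33, which encodes bL33m. Mrpl33 had 238.0, 251.5 and 259.6 CPM in GR-cKO, against 225.3, 221.3 and 219.7 CPM in control. The groups did not overlap, but the difference was small, with a log2 fold change of 0.17 ± 0.07 (SE, edgeR adjusted p = 0.0958). It passed with DESeq2's Wald test (adjusted p = 0.0426) and in none of the other 11 ways of processing. Mrpl30, which encodes uL30m, averaged 147.6 ± 0.81 CPM in GR-cKO and 139.7 ± 3.18 CPM in control, a log2 fold change of 0.08 that did not pass. The promoter window of Mrpl33 (RefSeq, GRCm38.p6, chr5:31613701-31614000, plus strand) is shown because it belongs to the most abundant member and holds the motif that was most frequent in the set. Its capitals mark a match to the core bound by ETS factors such as GABPA, which begins 3 bases before the start.
Mrpl33: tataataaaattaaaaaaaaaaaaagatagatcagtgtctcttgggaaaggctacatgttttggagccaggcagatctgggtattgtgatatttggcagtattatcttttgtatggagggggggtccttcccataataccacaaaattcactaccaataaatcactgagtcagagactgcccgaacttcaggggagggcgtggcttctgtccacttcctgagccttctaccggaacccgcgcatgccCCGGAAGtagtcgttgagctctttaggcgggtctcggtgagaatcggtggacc

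Large subunit members were also looked at by place in the particle, in groups made after the values were seen. The stalk recruits translation factors. Its protein Mrpl12, which encodes bL12m and has also been reported to bind the mitochondrial RNA polymerase, had 169.1, 179.4 and 185.4 CPM in GR-cKO, against 182.6, 180.4 and 193.8 CPM in control. These groups overlapped, with a log2 fold change of -0.06 and a 95% interval from -0.21 to 0.08. The stalk base members Mrpl10 and Mrpl11 had log2 fold changes of 0.03 and 0.02, so none of the 3 tested stalk members passed. The central protuberance, which contacts the head of the small subunit, had 7 tested members with a median of 0.02. Only Mrpl38 among them passed. Mrpl58, a peptidyl-tRNA hydrolase built into the ribosome, averaged 36.4 ± 5.30 CPM in GR-cKO and 41.6 ± 3.86 CPM in control, and Mrpl18 averaged 92.5 ± 0.99 CPM in GR-cKO and 100.7 ± 2.83 CPM in control, without overlap and without passing.

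Around the polypeptide exit, where the chain leaves towards the inner membrane, none of 7 tested members passed, and the median log2 fold change was 0.04. Mrpl45, which anchors the ribosome to the inner membrane, had 64.0, 66.9 and 71.8 CPM in GR-cKO, against 59.7, 54.8 and 61.8 CPM in control. The groups did not overlap, and the log2 fold change was 0.20 ± 0.09 (SE, edgeR adjusted p = 0.138). Mrpl24, which encodes uL24m, averaged 88.9 ± 4.38 CPM in GR-cKO and 77.2 ± 3.74 CPM in control, a log2 fold change of 0.20 ± 0.08 (SE, edgeR adjusted p = 0.0977). Its last 500 exonic bases lie wholly opposite exons of Rrnad1, which averaged 5.70 CPM in GR-cKO and 5.72 CPM in control. Mrpl44, whose product has the fold of an RNase III and which is linked to cardiomyopathy in human patients, had 28.8, 30.1 and 35.0 CPM in GR-cKO, against 23.2, 31.5 and 27.5 CPM in control. Its groups overlapped, with a log2 fold change of 0.19 ± 0.12 (SE, edgeR adjusted p = 0.359).

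Mrpl3, which encodes uL3m close to the catalytic centre and is likewise linked to cardiomyopathy in human patients, had 44.1, 54.6 and 48.0 CPM in GR-cKO, against 56.8, 54.1 and 53.0 CPM in control. Its groups overlapped, and the log2 fold change was -0.16 ± 0.10 (SE, edgeR adjusted p = 0.312). Mrps30, whose product mL65 belongs to the large subunit, averaged 35.0 ± 3.75 CPM in GR-cKO and 30.0 ± 4.17 CPM in control, a log2 fold change of 0.22 ± 0.12 (SE, edgeR adjusted p = 0.260). Mrpl34, which encodes bL34m, had the lowest log2 fold change of the large subunit, -0.22 ± 0.09 (SE, edgeR adjusted p = 0.0997), and passed only without GR-cKO replicate 3 (adjusted p = 0.0339). Within the large subunit, the least abundant tested members were Mrpl23, at 3.77 ± 0.45 CPM in GR-cKO and 3.895 ± 1.01 CPM in control, Mrpl22, at 11.1 ± 2.26 CPM in GR-cKO and 10.9 ± 0.93 CPM in control, and Mrpl1, at 13.1 ± 2.58 CPM in GR-cKO and 14.6 ± 1.02 CPM in control. Of these, Mrpl23 shares sequence with a processed pseudogene, Mrpl23-ps1, counted at 1.97 CPM in GR-cKO and 2.02 CPM in control. Split by origin, the 47 tested members with a bacterial counterpart had a median log2 fold change of -0.01 and the 28 without one a median of 0.03.

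Added together, the members held 4287, 4508 and 4462 CPM in GR-cKO, against 4512, 4429 and 4382 CPM in control, so the groups overlapped. The large subunit summed to 3027, 3210 and 3199 CPM in GR-cKO, against 3134, 3073 and 2994 CPM in control, also with overlap. The small subunit summed to 1257, 1296 and 1261 CPM in GR-cKO, against 1377, 1354 and 1386 CPM in control, and here every GR-cKO library was lower. That separation depended on Mrps6, since the small subunit sums without it overlapped between the groups. The ratio of small to large, which no scaling can change, was 0.415, 0.404 and 0.394 in GR-cKO, against 0.439, 0.441 and 0.463 in control. These are descriptions with no test. With Mrps6 left out, chosen after its values were seen, the ratio was 0.361, 0.354 and 0.337 in GR-cKO, against 0.376, 0.367 and 0.378 in control, still without overlap but closer. With ERCC scaling the small subunit sums overlapped, at 1275 to 1364 CPM in GR-cKO and 1265 to 1413 CPM in control. No single library held the extremes of the set, since each of the 6 had the highest value for 7 to 16 members and the lowest for 7 to 21.

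**Figure D4:**
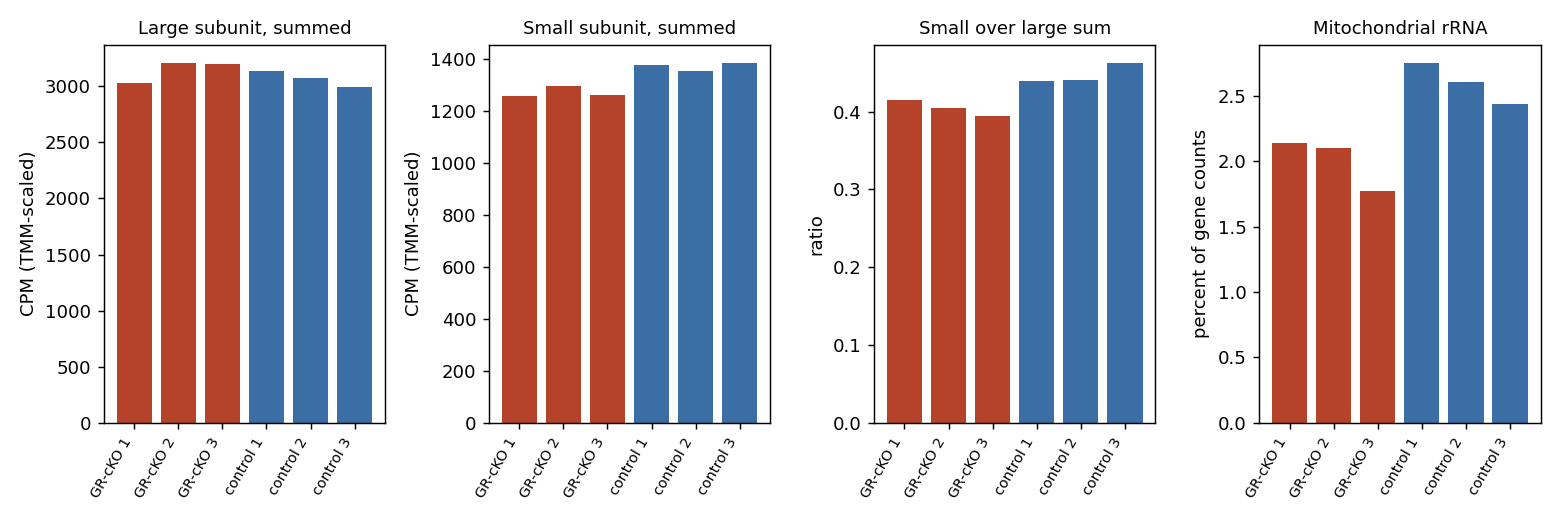
Summed level of large and small subunit members in CPM, their ratio, and mitochondrial ribosomal RNA as percent of gene counts, 1 bar per library (red GR-cKO, blue control, axes from 0). The large subunit sums overlap between the groups, whereas the small subunit sums (1257 to 1296 CPM in GR-cKO, 1354 to 1386 CPM in control), the ratio and the ribosomal RNA share are lower in every GR-cKO library. Without Mrps6 the small subunit sums overlap.

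The RNA components of the same ribosome, transcribed from mitochondrial DNA, were lower in GR-cKO. mt-Rnr1, the 12S RNA of the small subunit, averaged 3992 ± 639 CPM in GR-cKO and 5402 ± 636 CPM in control, a log2 fold change of -0.44 ± 0.09 (SE, edgeR adjusted p = 0.000754). mt-Rnr2, the 16S RNA of the large subunit, averaged 16330 ± 1669 CPM in GR-cKO and 20360 ± 1266 CPM in control, a log2 fold change of -0.32 ± 0.06 (SE, edgeR adjusted p = 0.000547). Together they took 2.14%, 2.10% and 1.77% of gene counts in GR-cKO, against 2.76%, 2.61% and 2.44% in control. Each passed in 11 of 12 other ways of processing, mt-Rnr1 not with DESeq2's Wald test (adjusted p = 0.0564) and mt-Rnr2 not with ERCC scaling (0.0602). The libraries were primed for polyadenylated RNA, so these counts are of tags captured that way and not of all ribosomal RNA.

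Another 5 mitochondrial ribosomal proteins have symbols outside the naming rule, and 0 of them passed the test (edgeR, 1 at an unadjusted p below 0.05, and 0 with DESeq2's Wald test). Their median log2 fold change was 0.11. Chchd1, which encodes mS37, averaged 169.5 ± 22.3 CPM in GR-cKO and 146 ± 15.0 CPM in control, a log2 fold change of 0.21 ± 0.09 (SE, edgeR adjusted p = 0.120). Dap3, which encodes the GTP-binding protein mS29, averaged 67.6 ± 4.83 CPM in GR-cKO and 66.1 ± 2.01 CPM in control. The log2 fold changes of Aurkaip1, Gadd45gip1 and Ptcd3 were 0.11, 0.13 and -0.04.

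Of 30 tested genes listed for ribosome assembly and ribosomal RNA modification, 1 rose and 1 fell, and the median log2 fold change was -0.00. The share that passed was 6.67%, against 14.8% of all tested genes. Afg3l2, a subunit of the inner membrane protease that matures the ribosomal protein encoded by Mrpl32, had 61.0, 65.6 and 65.8 CPM in GR-cKO, against 44.5, 48.3 and 37.9 CPM in control. The groups were apart, with a log2 fold change of 0.56 ± 0.10 (SE, edgeR adjusted p = 0.0002), and the gene passed in all 12 other ways of processing. Mrpl32 itself averaged 25.3 ± 1.82 CPM in GR-cKO and 27.7 ± 0.87 CPM in control, a log2 fold change of -0.13 that did not pass. The row that fell was Trmt61b, which the mouse annotation marks as a noncoding antisense gene, although its human namesake encodes a methyltransferase of mitochondrial RNA. It averaged 4.97 ± 0.40 CPM in GR-cKO and 7.82 ± 1.43 CPM in control, a log2 fold change of -0.66 ± 0.22 (SE, edgeR adjusted p = 0.0491), and passed in only 3 of 12 other ways of processing. Without a known strand setting, its reads cannot be told apart from those of a gene on the other strand.

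The factors that run translation on this ribosome did not pass, 0 of 13 tested in either direction (edgeR, 1 at an unadjusted p below 0.05, and 0 with DESeq2's Wald test), with a median log2 fold change of 0.08. The smallest p-values were those of Gfm2, a ribosome recycling factor, with a log2 fold change of 0.31 ± 0.14 (SE, edgeR adjusted p = 0.167), and of Guf1, a translation factor, with 0.33 ± 0.16 (0.216). Of 20 genes for charging mitochondrial transfer RNAs, 1 rose (5.0%, against 7.63% of all tested genes). Ears2, the glutamyl-tRNA synthetase of mitochondria, had 70.6, 66.9 and 70.1 CPM in GR-cKO, against 44.4, 38.7 and 50.03 CPM in control. The groups did not overlap, with a log2 fold change of 0.64 ± 0.10 (SE, edgeR adjusted p = 3.34e-05), and it passed in all 12 other ways of processing. Of 18 tested genes for transcription of mitochondrial DNA and processing of its RNA, 1 rose (5.56%, again against 7.63%). This was Lrpprc, which stabilises mitochondrial messenger RNAs, at 70.1 ± 8.13 CPM in GR-cKO and 54.4 ± 7.65 CPM in control, a log2 fold change of 0.37 ± 0.10 (SE, edgeR adjusted p = 0.0167). It passed in 9 of 12 other ways of processing.

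Of 14 transcription factors and coactivators known to act on nuclear genes for mitochondria, 1 fell (7.14%, against 7.19% of all tested genes). Max, the partner of Myc, averaged 38.9 ± 2.58 CPM in GR-cKO and 49.8 ± 4.14 CPM in control, a log2 fold change of -0.36 ± 0.10 (SE, edgeR adjusted p = 0.0139), and passed in 7 of 12 other ways of processing. Nrf1, Gabpa and Yy1, whose motifs are counted below, had log2 fold changes of -0.02, -0.22 and -0.06, and none of them passed.

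The cytosolic ribosomal proteins were still narrower in their fold changes than the mitochondrial ones. Of 78 tested, 0 passed in either direction (edgeR, 2 at an unadjusted p below 0.05, 1 higher and 1 lower with DESeq2's Wald test), with a median log2 fold change of -0.01 and a standard deviation of 0.07. They were also more abundant, with a median level of 698 CPM against 50.8 CPM for the mitochondrial ones. The complexes of oxidative phosphorylation also hold the products of the mitochondrial ribosome. Their nuclear subunits were taken by patterns in gene symbols, which left out Cox4i1 of complex IV and took in Atp5s, so the list is not exact. Of 79 tested nuclear subunits, 2 rose (2.53%, against 7.63% of all tested genes) and 0 fell. These were Ndufv3 of complex I, with a log2 fold change of 0.37 ± 0.07 (SE, edgeR adjusted p = 0.000285), and Sdhb of complex II, with 0.20 ± 0.07 (0.0381). Their median was 0.05, with 62 higher and 17 lower by sign, whereas the mitochondrial ribosomal proteins were split 37 to 39. This contrast was not tested. The summed levels of the nuclear subunits overlapped, at 37230, 38850 and 40290 CPM in GR-cKO, against 37120, 37180 and 38030 CPM in control.

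Many members have a start close to that of a gene on the opposite strand, in some pairs with overlapping exons. An opposite-strand protein-coding start within 1000 bases was annotated for 32 of the 76 tested members (42.1%), against 15.8% of 12706 tested protein-coding genes. Together with Slc5a3 on the same strand, this gave 28 different tested neighbours outside the set. None of these rose and 5 fell (17.9%) against 7.19% lower among all tested genes. These neighbours were chosen after their values were seen. Wdfy1, whose start is 125 bases from that of Mrpl44, averaged 32.8 ± 3.86 CPM in GR-cKO and 92.0 ± 7.33 CPM in control, a log2 fold change of -1.49 ± 0.10 (SE, edgeR adjusted p = 9.54e-11), while that of Mrpl44 was 0.19. Exons of the pair overlap by 126 bases, none of them among the last 500 exonic bases of Mrpl44. Ncapd2, a subunit of the condensin complex that compacts chromosomes, starts 100 bases from Mrpl51 and averaged 26.6 ± 2.08 CPM in GR-cKO and 43.3 ± 5.96 CPM in control. Its log2 fold change was -0.70 ± 0.11 (SE, edgeR adjusted p = 7.96e-05), and that of Mrpl51 was -0.01, with a 95% interval from -0.17 to 0.15.

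Ska3, which helps attach chromosomes to the spindle and starts 49 bases from Mrpl57, averaged 4.94 ± 0.24 CPM in GR-cKO and 8.77 ± 1.00 CPM in control, with a log2 fold change of -0.83 ± 0.21 (SE, edgeR adjusted p = 0.00721), against -0.04 for Mrpl57. Eme1, part of a nuclease that resolves recombination intermediates, starts 197 bases from Mrpl27 and averaged 1.14 ± 0.43 CPM in GR-cKO and 2.77 ± 0.30 CPM in control, with a log2 fold change of -1.27 ± 0.43 (SE, edgeR adjusted p = 0.0466), against 0.02 for Mrpl27. Mrpl44, Mrpl51, Mrpl57 and Mrpl27 did not pass the test, and the 95% intervals of their log2 fold changes lay between -0.25 and 0.45. The difference between the 2 genes of each pair was not tested.

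RefSeq promoter windows of 300 bases were found for 69 of the 78 members and searched on both strands for 6 short motifs. A gene with several windows was counted once if any of them matched. The 69 members include the untested Mrps18b and Mrpl53, which both hold the ETS core, and Mrps18b also holds the NRF1 core. The ETS core CCGGAAG stood in the windows of 26 members (37.7%), against 19.8% of 9986 tested protein-coding genes and 9.93% of all 27025 genes with a window. The YY1 motif AAGATGGCG stood in 8 (11.6%), against 3.48% of tested genes and 1.64% of all genes, and the core of the NRF1 site, CGCATGCG, in 7 (10.1%), against 4.31% and 2.07%. Mrps11 and Mrps24 were among the 8 with the YY1 motif, and the other 6 had log2 fold changes from -0.11 to 0.20. The E-box CACGTG stood in 5 (7.25%), against 11.7% and 8.09%. The core of the hypoxia response element, ACGTG, which every E-box of this kind contains, stood in 16 (23.2%), against 29.2% and 21.8%. The core of the glucocorticoid response element, ACANNNTGT, stood in 3 (4.35%), Mrpl23, Mrpl34 and Mrpl45, against 4.93% of tested genes and 7.90% of all genes. None of these 3 passed the test. A match is a description of the letters in this window and not of binding, and Mrpl38 was not among the genes with a window.

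**Figure D5:**
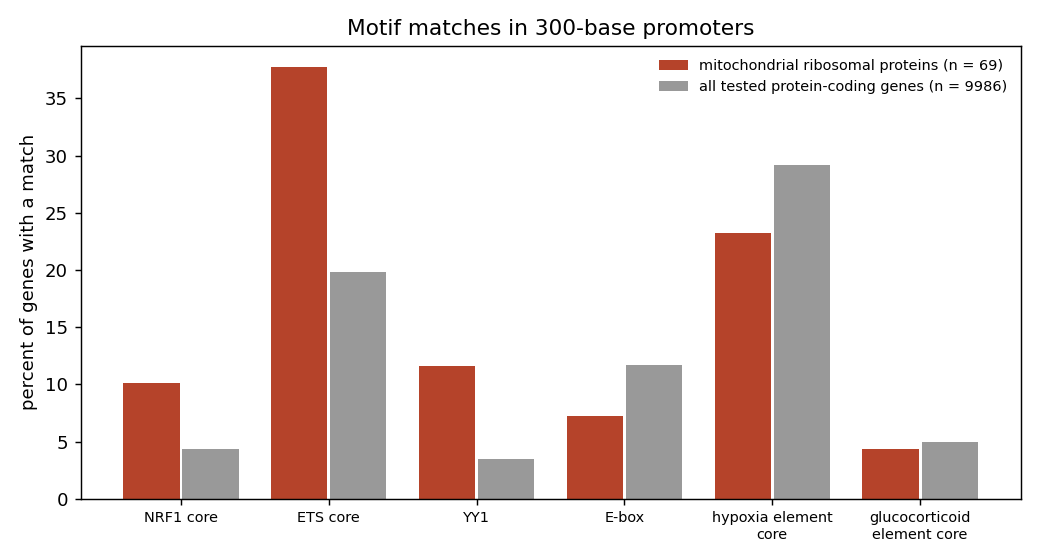
Percent of genes (vertical axis, from 0) with at least 1 match to each of 6 motifs in a 300-base promoter window, in red for 69 mitochondrial ribosomal proteins and in grey for 9986 tested protein-coding genes. The ETS core, the YY1 motif and the NRF1 core are more frequent in red, at 37.7%, 11.6% and 10.1%, and the other 3 motifs are less frequent.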

How the data were processed

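RNA was measured in 6 QuantSeq 3' mRNA libraries (FWD kit) made from 100 ng of total RNA. Each library has 1 table, in which the authors deposited whole-number counts per gene without scaling. Named in the submitters' processing notes, per the labels without roles, are build GRCm38 and featureCounts 1.6.2, STAR 2.5.4a, DESeq2 1.18.1, MultiQC 1.5, FastQC 0.11.7, cutadapt 1.16 and bcl2fastq. How strand and multiply mapped reads were handled is not given in the sources used here, so members that overlap other genes or have pseudogenes are uncertain. Exons of 33 members overlap another gene, and in 11 the overlap reaches the last 500 exonic bases.

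Sample titles gave the groups and replicate numbers. Spike-in rows, 1.98% to 2.36% of counts, stayed out of library sizes and tests. Symbols and coordinates (1-based) came from GENCODE. GR-cKO was set against control with the quasi-likelihood F-test of edgeR 4.0.16 (R 4.3.3) and TMM factors from 0.980 to 1.02, run on the 14386 genes that passed filterByExpr, and p-values were adjusted by the method of Benjamini and Hochberg, with a threshold of 0.05. The common biological coefficient of variation was 0.128. The fit was tested on simulated data with known changes in tested genes of any level. It called 6% of simulated 1.25-fold changes and 48% of 1.5-fold changes, against 88% at 2-fold and 98% at 3-fold. Of unchanged genes it called 0.0563%. The share called at the levels of the members was not tested. No library looked like a copy of another (median chi-square within a group 2.47 to 3.71 per gene), a check that says nothing of whether they came from separate animals.

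The members and lists were chosen with earlier results of these data known. The naming rule took members past the threshold, the next 4 by p, the 3 highest and 3 lowest levels per subunit, the S18 paralogues, Mrps30, Mrpl12, Mrps36, members linked to human cardiomyopathy, untested members, and in each other list up to 4 members past the threshold or the 2 smallest p-values. Others, among them Mrpl24, Mrpl34, Mrpl45, Mrpl46, Mrpl58, Mrpl18, Mrpl10, Mrpl11, Mrpl32 and the neighbouring genes, were chosen after their values were seen. Alternatives were DESeq2 size factors, ERCC scaling, DESeq2's Wald test (DESeq2 1.42.0), no filter, each library left out, a replicate block, and no genes of chromosomes X and Y.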

Additional observations from a re-analysis of the deposited data

How the results depend on the processing

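Over 12 alternatives for each of the 76 tested members (912 in all), 862 left the result as reported, 44 moved a fold change that had no call by more than its standard error, most of them with ERCC scaling, 3 lost a call (Mrpl38, as given above), 3 gave one to a member without (Mrpl33, Mrpl34, Mrps5) and 0 reversed one. With ERCC scaling the median log2 fold change was 0.091 for the members and 0.087 for all genes, the members summed to 4559 CPM in GR-cKO and 4297 CPM in control, 522 genes were called lower, 2 members higher, 1 cytosolic ribosomal protein higher, 4 subunits of oxidative phosphorylation higher, 1 mitochondrial rRNA lower, 0 assembly genes lower, and 1 transcription factor higher and 0 lower. DESeq2's Wald test called 2 members higher, 1 mitochondrial rRNA lower, and 1 cytosolic ribosomal protein in each direction. With DESeq2 size factors, without the filter, and without chromosomes X and Y, 0 assembly genes were lower. Leaving out 1 library at a time gave 0 to 1 members higher and 1 to 2 lower, 0 to 1 of the proteins outside the naming rule higher, 0 to 1 assembly genes lower, 0 to 1 genes of mitochondrial transcription higher and 0 to 1 lower, 0 to 1 transcription factors lower, 0 to 1 cytosolic ribosomal proteins lower, and 1 to 4 subunits of oxidative phosphorylation higher. The causes were not tested. With the replicate number as a block, 2353 genes passed, with 1 member higher and 1 lower, 1 protein outside the naming rule higher and 1 cytosolic ribosomal protein lower; same-numbered libraries did not deviate together (correlations -0.000102, 0.0366 and 0.0195), so the numbers are not taken as pairs. Without Mrps6, an alternative chosen after seeing the data, the ratio of small to large subunit sums in GR-cKO over control was 0.939, against 0.904 with it. Depth and 3 libraries a group limit what could be seen: only 38 of 76 members had an interval within 1.25-fold, and the members under 10 CPM had the widest.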
